A study of Mus musculus with 12 samples.

Results

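The set described here holds 35 genes that decide whether a cell starts, or is held back from, apoptosis: the BCL2 family, the caspases and their activator Apaf1, the inhibitor of apoptosis (IAP) proteins, the death receptors with their adaptors, and p53 with MDM2. They were taken by gene symbol, from a list made with earlier results of these data known. Of the 35 genes 31 could be measured, among 18193 genes measured in all. Bcl2a1a shares its 3 probe sets with near-identical copies, and Bax, Ripk1 and Trp53 were not analysed here. By textbook role 17 of the measured members were counted as pro-death, 9 as pro-survival and 5 as able to act on either side.

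The RNA came from granulosa cells of 4 groups of mice with 3 samples each, all aged 21 days and of the strain C57BL/6J;129S5/SvEvBrd. Every mouse received 5 IU of PMSG, a gonadotropin with follicle-stimulating activity, for 44 to 46 h. The groups were wild type after PMSG, Inha-/- after PMSG, wild type after PMSG followed by 5 IU of hCG for 6 h, and Inha-/- after that same sequence. hCG is a gonadotropin with luteinizing activity. Inha encodes the alpha subunit of the inhibins. The labels name neither a Cre line nor a targeted cell type, and they do not say how many animals gave a sample. Cells were collected by puncturing antral follicles, so other ovarian cells could enter a sample. Each sample was read on 1 Affymetrix array. The series calls the samples of a group independent, and the p values measure the spread between these samples. Some arrays share a number in their names, within which the estimated correlation was 0.58 over all genes. The main fit did not use that number.

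Apoptosis of granulosa cells accompanies atresia, the loss of follicles that do not ovulate, and gonadotropins are known to hold it back. In the mitochondrial route BH3-only proteins such as BIM (Bcl2l11) and BMF sense stress and bind the pro-survival proteins BCL2, BCL-XL (Bcl2l1), BCL-W (Bcl2l2) and MCL1, while the effectors BAK and BOK permeabilize the outer membrane, after which APAF1 activates caspase-9. In the receptor route FAS, DR5 (Tnfrsf10b) or TNFR1 (Tnfrsf1a) recruit FADD or TRADD and caspase-8, and c-FLIP (Cflar), a relative of caspase-8 without protease activity, restrains that step. Much of this machinery is regulated at the protein level, which RNA does not show.

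Promoters of the 5 members that differed between the genotypes are printed to show the sequence upstream of the genes the results turn on. They are the 250 bases before the annotated start in RefSeq (GRCm38.p6), 5′ to 3′ on the gene's strand, for Bcl2l11 from the upstream one of its annotated starts. Capitals mark matches, on either strand, to any of 5 motifs: GTAAACA (forkhead, bound by FOXO factors), CAAGGTCA (NR5A receptors), TGACGTCA (cAMP response element), GGGCGG (GC box, read as CCGCCC on the other strand) and CAGACA (SMAD).
Cflar, chr1:58711241-58711490, + strand: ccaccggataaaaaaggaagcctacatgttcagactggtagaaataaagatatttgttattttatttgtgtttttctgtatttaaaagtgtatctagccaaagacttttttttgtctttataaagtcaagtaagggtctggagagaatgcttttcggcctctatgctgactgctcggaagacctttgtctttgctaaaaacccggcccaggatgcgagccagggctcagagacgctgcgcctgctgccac
Casp6, chr3:129901165-129901414, + strand: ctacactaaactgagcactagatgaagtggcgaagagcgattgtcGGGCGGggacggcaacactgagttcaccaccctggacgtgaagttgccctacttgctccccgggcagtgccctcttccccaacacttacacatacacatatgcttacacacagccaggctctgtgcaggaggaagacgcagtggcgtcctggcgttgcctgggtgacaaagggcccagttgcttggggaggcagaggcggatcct
Bcl2l2, chr14:54883175-54883424, + strand: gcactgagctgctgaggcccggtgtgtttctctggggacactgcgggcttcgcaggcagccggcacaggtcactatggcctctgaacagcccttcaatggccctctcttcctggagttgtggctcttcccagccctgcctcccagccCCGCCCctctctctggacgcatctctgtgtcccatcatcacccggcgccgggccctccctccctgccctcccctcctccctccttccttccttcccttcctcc
Bcl2l11, chr2:128125788-128126037, + strand: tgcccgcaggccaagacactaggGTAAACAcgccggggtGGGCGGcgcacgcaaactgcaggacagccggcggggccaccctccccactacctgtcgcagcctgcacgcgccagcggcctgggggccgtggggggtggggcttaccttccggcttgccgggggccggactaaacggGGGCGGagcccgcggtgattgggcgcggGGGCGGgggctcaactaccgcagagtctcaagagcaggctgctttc
Bok, chr1:93685325-93685574, + strand: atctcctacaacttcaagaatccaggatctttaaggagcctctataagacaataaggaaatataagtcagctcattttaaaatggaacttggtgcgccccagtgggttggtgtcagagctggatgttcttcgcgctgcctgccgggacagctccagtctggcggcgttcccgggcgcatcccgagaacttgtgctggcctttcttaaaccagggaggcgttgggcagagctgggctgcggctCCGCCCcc
The Bcl2l11 window held a forkhead match 227 to 221 bases before the start and 3 GC boxes. The window of its downstream start, not printed, held no forkhead match and 2 GC boxes. Casp6, Bcl2l2 and Bok held 1 GC box each, and the Cflar window held none of the 5 letter strings. The matches in these windows did not overlap each other. Over 32851 mouse promoters of this length, 3.17% held GTAAACA, 1.33% CAAGGTCA, 1.55% TGACGTCA, 32.7% GGGCGG and 17.1% CAGACA. The table held 40 promoters for 28 of the measured members. Of these 40, GTAAACA was in 5 (Bbc3, Bcl2l11, Mdm2 and both of Casp4), GGGCGG in 22, CAGACA in 4 (Bak1, Bbc3, Bmf and Xiap), CAAGGTCA in 1 (Bcl2l1) and TGACGTCA in 1 (Birc2). The windows of Casp4 overlap, and both hold the same match. A match describes letters and is not a site of binding.

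The values are log2 expression centred on each probe set's median over the 12 arrays, so they give differences between arrays and no level, and genes cannot be ranked by abundance. Inha itself checked the labels. Wild-type arrays read 5.62, 5.62 and 5.87 after PMSG and 5.52, 5.4 and 5.42 after hCG. Inha-/- arrays read -7.38, -5.4 and -7.25 after PMSG and -7.35, -7.35 and -7.4 after hCG, so every array matched its genotype label. One array stood apart for many members: replicate 3 of Inha-/- after PMSG read -2.11 for Apaf1, -1.90 for Xiap, -1.70 for Cflar, -1.46 for Casp9, -1.13 for Birc3 and -1.06 for Mcl1. Without this array 9 of 31 members changed sign in the genotype difference after PMSG (Mcl1, Bid, Pmaip1, Casp9, Apaf1, Casp1, Xiap, Fas and Mdm2), and 12 of 31 in the difference with hCG in Inha-/-. None of those members was called in that comparison with or without it. The array was singled out by its values for the members. Calls gained without it therefore show dependence on a single array and are not further support. By the serial numbers in their names 7 arrays were early and 5 late. Late were that array and replicates 2 and 3 of both hCG groups. Each hCG group thus has only replicate 1 among the early arrays, so early differences that use it are given by size alone. No late array holds wild type after PMSG. The granulosa list had 11 of 13 markers measured, and centred values cannot show whether a marker is present.

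**Figure D1:**
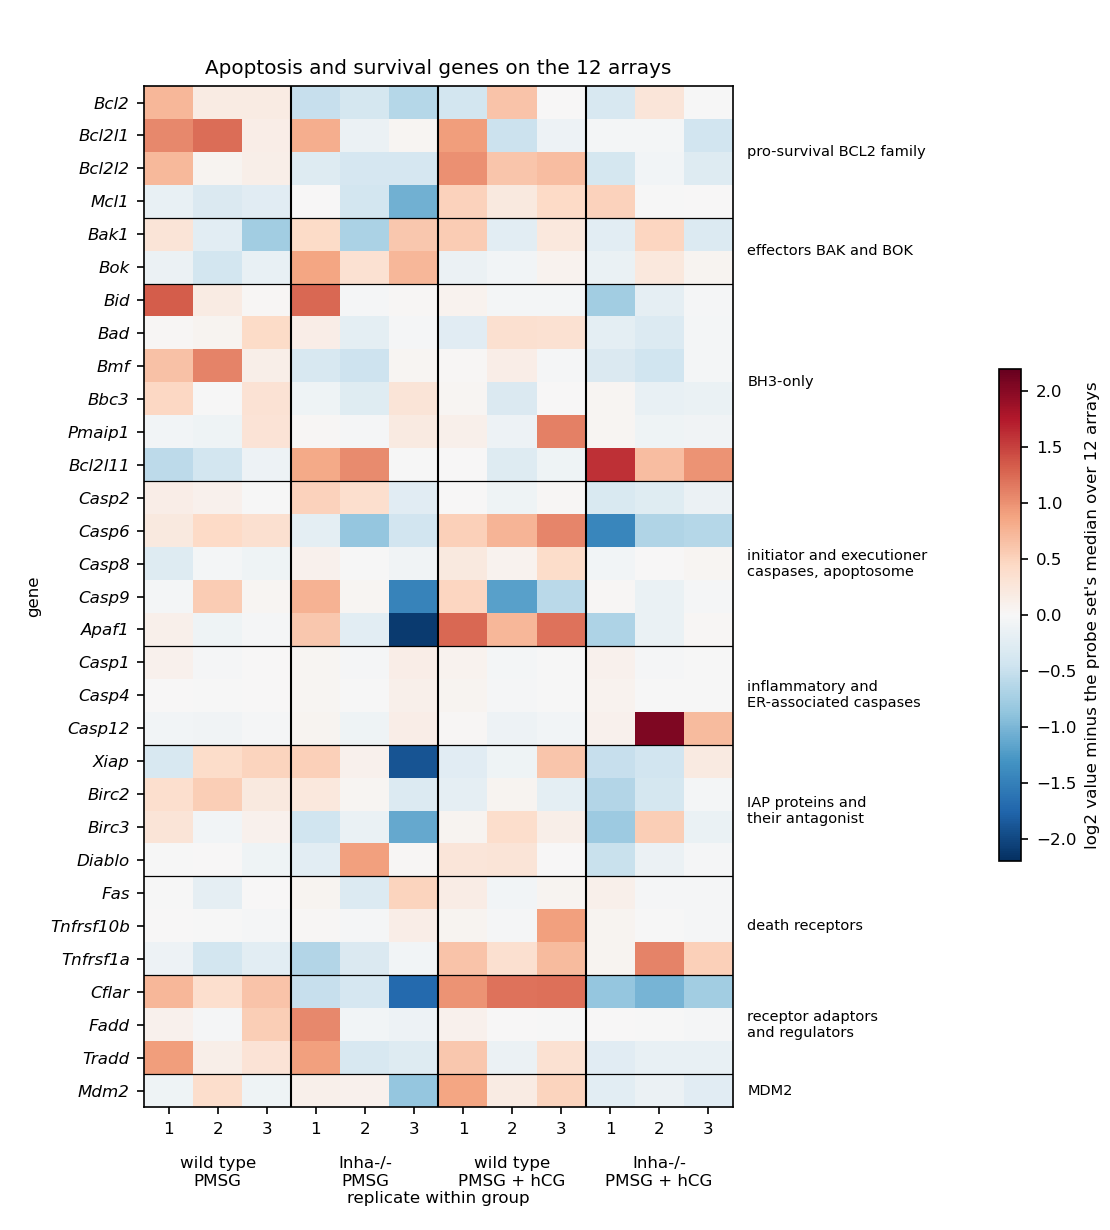
Centred log2 values (colour scale) of the 31 measured members (y axis, ordered by role) on each of the 12 arrays (x axis, by group and replicate). Cflar and Casp6 are positive on all wild-type and negative on all Inha-/- arrays, and replicate 3 of Inha-/- after PMSG is low for Apaf1 and Xiap.

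Few members were called between the genotypes. After PMSG 1 of 31 members was higher in Inha-/- (Bok, 1.84-fold) and 1 lower (Cflar, 2.71-fold), beside 1.79% and 1.72% of all 18193 genes (3.51% together). After hCG 1 was higher (Bcl2l11, 2.31-fold) and 3 were lower (Cflar, 4.04-fold; Casp6, 3.22-fold; Bcl2l2, 2.01-fold), beside 8.0% and 5.66% of all genes. The response to hCG held 1 higher member in wild type (Casp8, 1.30-fold) and none lower, beside 6.49% and 7.43% of all genes. In Inha-/- none was called in either direction, beside 1.40% higher and 0.154% lower of all genes (1.56% together). Calls are at an adjusted p under 0.05 in limma, with Benjamini-Hochberg adjustment over all 18193 genes. Counts this small are of the order of the background, and the values below are read gene by gene.

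Markers of other cells moved with genotype beside every result that follows. In Inha-/- 3 of 14 oocyte markers were higher after PMSG and 9 of 14 after hCG. Their median per array was -1.46 to -0.58 and -1.50 to -0.59 in wild type, and 0.67 to 2.2 and 0.42 to 3.01 in Inha-/-, after PMSG and after hCG. Of 14 theca and stroma markers 5 were higher and 1 lower after PMSG, and 8 higher after hCG, with array medians of -0.71 to -0.34 and -1.13 to -0.49 in wild type and of 0.50 to 1.65 and 0.32 to 2.35 in Inha-/-. Surface epithelium markers were lower, 4 of 9 in each comparison. No leukocyte marker of 19 was called in either, at array medians of -0.13 to 0.12 in wild type and 0.032 to 0.97 in Inha-/- after hCG. Of 11 granulosa markers 1 was lower after PMSG and 4 were higher after hCG in Inha-/-, and 8 were lower with hCG in wild type. Of 12 dissociation and stress genes none was called after PMSG, at a median difference of -1.98, and 1 was lower after hCG. The part of these cells and genes in the members' differences was not tested. In such bulk samples fewer cells of a type and less RNA per cell cannot be told apart.

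In the death receptor route Cflar stood out, lower in Inha-/- under both treatments. Its values were 0.73, 0.38 and 0.63 in wild type after PMSG and -0.50, -0.38 and -1.70 in Inha-/- after PMSG. After hCG they were 0.99, 1.19 and 1.22 in wild type and -0.85, -1.02 and -0.77 in Inha-/-. Every Inha-/- array lay below every wild-type array. The difference was -1.44 ± 0.30 (log2, ± SE, n = 3 against 3) after PMSG, with a 95% confidence interval of -2.11 to -0.77 and an adjusted p of 0.0323. After hCG it was -2.01 ± 0.30, with an interval of -2.68 to -1.34 and an adjusted p of 0.00234. The difference with hCG was 0.56 ± 0.30 in wild type, which was not called (adjusted p = 0.310), and -0.018 ± 0.30 in Inha-/-. Without replicate 3 of Inha-/- after PMSG the former was called at the same value (adjusted p = 0.0137), and so was the difference between the 2 responses (-0.99, adjusted p = 0.0480, against -0.57 ± 0.42 and 0.789 with all arrays).

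The Cflar call after hCG was kept in each of 12 fits that left out 1 array, at -2.09 to -1.94. It measured -1.83 between the single early arrays of the genotypes and -2.10 among the late ones (adjusted p = 0.0531). The call after PMSG was less firm. It held without replicate 3 of Inha-/-, the lowest array, at -1.02 with an adjusted p of 0.00939. It was lost without replicate 1, 2 or 3 of wild type after PMSG (-1.36, -1.54 and -1.41; adjusted p = 0.105, 0.0679 and 0.10) and without replicate 2 or 3 of Inha-/- after hCG (adjusted p = 0.0510 and 0.0546). Among the early arrays alone it was -1.02 (adjusted p = 0.0853).

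Casp8, the initiator caspase that c-FLIP restrains, was the member that hCG raised in wild type. It read -0.28, -0.043 and -0.095 after PMSG and 0.22, 0.084 and 0.41 after hCG in wild type. In Inha-/- it read 0.090, -0.011 and -0.084 after PMSG and -0.064, 0.011 and 0.051 after hCG. The wild-type groups did not overlap, while the Inha-/- groups did. The rise in wild type was 0.38 ± 0.097 (adjusted p = 0.0312) and the difference in Inha-/- was 0.00060 ± 0.097. The difference between these responses, -0.38 ± 0.14, was not called (adjusted p = 0.312). The rise is small. Its call was lost without replicate 1, 2 or 3 of wild type after PMSG or 1 or 3 of wild type after hCG. These fits gave 0.29 to 0.42, with an adjusted p of 0.0504 to 0.116. Among the early arrays, with a single wild-type array after hCG, the rise was 0.36. It was lost in 8 of 14 alternatives that leave out no single array, among them the filter on SD (adjusted p = 0.128), early or late serial number as a covariate (0.0841) and the array-name block (0.145).

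The receptors and adaptors showed no called difference between genotypes. Fas, Tnfrsf10b and Tnfrsf1a ranged from -0.097 to 0.15 after PMSG and from -0.31 to -0.00081 after hCG. Tnfrsf1a, the TNF receptor that can signal to survival or to death, differed most with hCG. Its values were -0.10, -0.41 and -0.23 in wild type after PMSG and 0.62, 0.35 and 0.70 after hCG, and -0.65, -0.32 and -0.060 in Inha-/- after PMSG and 0.060, 1.09 and 0.52 after hCG. The groups did not overlap in either genotype, yet neither difference was called: 0.80 ± 0.25 in wild type (adjusted p = 0.0616) and 0.90 ± 0.25 in Inha-/- (adjusted p = 0.172). The adaptors Fadd and Tradd differed by 0.095 and -0.36 after PMSG and by -0.039 and -0.46 after hCG between genotypes, uncalled.

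**Figure D2:**
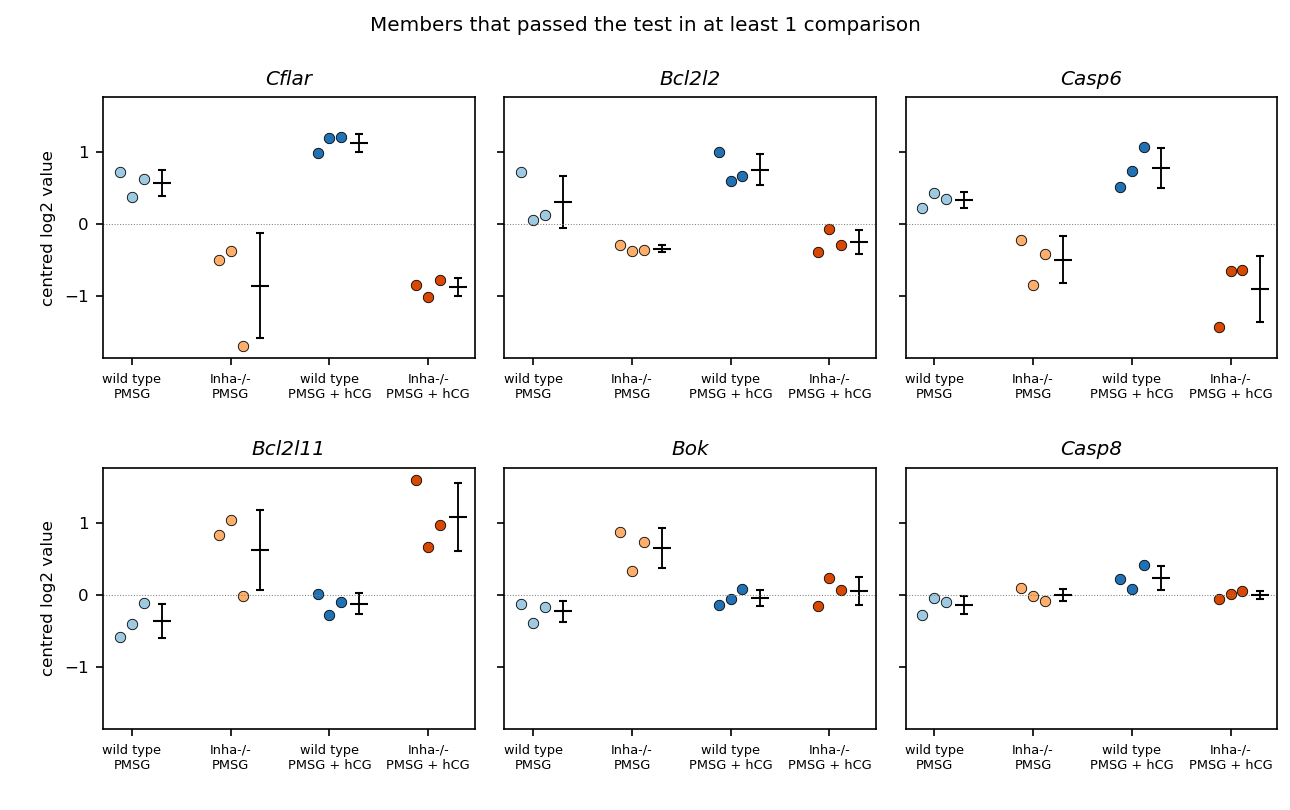
Centred log2 values by group for the 6 members called in at least 1 comparison; points are arrays (3 a group), with the group mean and SD beside them. Cflar, Casp6 and Bcl2l2 are lower and Bcl2l11 is higher in Inha-/- after hCG, Bok is higher in Inha-/- after PMSG, and Casp8 is higher after hCG in wild type.

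Among the 4 pro-survival BCL2 proteins only Bcl2l2 was called, and all 4 had negative differences between Inha-/- and wild type in both comparisons when all arrays were used. The sign turned for Mcl1 after PMSG without replicate 3 of Inha-/- (0.043). After hCG it turned for Bcl2 without replicate 2 of wild type (0.16) or replicate 1 of Inha-/- (0.051), and for Bcl2l1 without replicate 1 of wild type (0.12). Bcl2l2 read 0.72, 0.063 and 0.13 in wild type and -0.29, -0.38 and -0.36 in Inha-/- after PMSG. After hCG it read 1.0, 0.60 and 0.67 in wild type and -0.38, -0.063 and -0.29 in Inha-/-. The genotypes did not overlap under either treatment. The difference was -1.01 ± 0.18 after hCG (95% interval -1.41 to -0.61, adjusted p = 0.00541), called in 12 of 12 fits that left out an array (-1.10 to -0.88). It was -1.39 between the single early arrays of the genotypes and -0.82 among the late ones (adjusted p = 0.0935). After PMSG it was -0.64 ± 0.18, which was not called (adjusted p = 0.0920) but was with the number in the array name as a random block (-0.68, adjusted p = 0.0155). That number is shared by replicates 1, and by replicates 2, of the PMSG groups. Replicates 2 and 3 of wild type after hCG also share a number. With this block 743 of all 18193 genes were higher and 736 lower after PMSG, against 325 and 313 without it. The Bcl2l2 difference after PMSG was called in 0 of 12 fits that left out an array. With hCG in wild type it was 0.46 ± 0.18 (adjusted p = 0.133), and 0.67 without replicate 1 of wild type after PMSG (adjusted p = 0.0190).

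Bcl2, the founding member of the family, read 0.74, 0.18 and 0.18 in wild type and -0.51, -0.39 and -0.63 in Inha-/- after PMSG. These groups did not overlap, and the difference of -0.87 ± 0.27 was not called (adjusted p = 0.131; 0.0424 with the array-name block). Bcl2 was called there in 0 of 12 fits that left out an array (-0.97 to -0.69). Its 4 further probe sets differed by -0.035 to 0.098, so the separation rests on 1 of 5 probe sets. After hCG the groups overlapped, at -0.40, 0.63 and 0.010 in wild type and -0.36, 0.27 and -0.010 in Inha-/-, with a difference of -0.11 ± 0.27. The test of a change of the genotype difference with hCG gave 0.76 ± 0.38 (adjusted p = 0.525).

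Bcl2l1, which encodes BCL-XL, varied within groups. It read 1.06, 1.22 and 0.14 in wild type and 0.80, -0.14 and 0.039 in Inha-/- after PMSG, and 0.92, -0.47 and -0.11 in wild type and -0.041, -0.039 and -0.42 in Inha-/- after hCG. The genotypes overlapped under both treatments, and their differences were -0.57 ± 0.41 and -0.28 ± 0.41. Mcl1, which encodes a short-lived survival protein, read -0.16, -0.33 and -0.24 in wild type and 0.0094, -0.41 and -1.06 in Inha-/- after PMSG. After hCG it read 0.52, 0.21 and 0.44 in wild type and 0.51, -0.00076 and 0.00076 in Inha-/-. The wild-type arrays after hCG all lay above those after PMSG, and the difference of 0.63 ± 0.25 was not called on this probe set (adjusted p = 0.137), but was without replicate 3 of Inha-/- after PMSG (adjusted p = 0.0389). In Inha-/- the difference with hCG was 0.66 ± 0.25 (adjusted p = 0.399), and 0.37 without that array.

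Of the effectors, Bok was higher in Inha-/- after PMSG. BOK was named for its expression in the ovary. Its values were -0.13, -0.40 and -0.16 in wild type and 0.87, 0.33 and 0.73 in Inha-/- after PMSG, so that all Inha-/- arrays were above all wild-type ones. After hCG they were -0.14, -0.063 and 0.081 in wild type and -0.15, 0.23 and 0.063 in Inha-/-, and the groups overlapped. The difference was 0.88 ± 0.15 after PMSG (95% interval 0.53 to 1.22, adjusted p = 0.0167) and 0.087 ± 0.15 after hCG (interval -0.26 to 0.43). The difference between these, -0.79 ± 0.22, had the smallest p of all members (0.00491) and was not called (adjusted p = 0.154). Without replicate 2 or 3 of wild type or replicate 3 of Inha-/- after PMSG the call was lost (0.79, 0.91 and 0.83; adjusted p = 0.0594, 0.0501 and 0.0541), as it was among the early arrays (0.83, adjusted p = 0.210). With hCG in Inha-/- the difference was -0.60 ± 0.15 (adjusted p = 0.130), and -0.76 without replicate 2 of Inha-/- after PMSG (adjusted p = 0.0374). Bak1, the effector most cells rely on beside BAX, differed by 0.35 ± 0.40 after PMSG and -0.20 ± 0.40 after hCG, uncalled.

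Of the 6 BH3-only genes Bcl2l11, which encodes the broad activator BIM, was higher in Inha-/- after hCG. Its values were 0.012, -0.28 and -0.10 in wild type and 1.60, 0.67 and 0.98 in Inha-/- after hCG. After PMSG they were -0.58, -0.41 and -0.11 in wild type and 0.83, 1.04 and -0.012 in Inha-/-. The genotypes did not overlap under either treatment. The difference was 1.21 ± 0.30 after hCG (95% interval 0.53 to 1.88, adjusted p = 0.0271) and 0.99 ± 0.30 after PMSG (adjusted p = 0.128, not called; 0.0127 with the array-name block). Without replicate 3 of Inha-/- after PMSG the latter was 1.30, with an adjusted p of 0.0447. The call after hCG was lost without replicate 1, 2 or 3 of wild type or 1 or 3 of Inha-/- after hCG. These fits gave 0.95 to 1.28, with an adjusted p of 0.0522 to 0.0799. It was also lost with the array-name block (1.19, adjusted p = 0.0704). The difference was 1.59 between the single early arrays of the genotypes and 1.02 among the late ones (adjusted p = 0.108).

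Bmf, a BH3-only gene linked to loss of attachment, had a negative difference after PMSG. It read 0.64, 1.09 and 0.13 in wild type and -0.34, -0.46 and 0.040 in Inha-/-. The groups did not overlap, and the difference of -0.88 ± 0.23 was not called (adjusted p = 0.0763). Bmf was called as lower with array weights and with the array-name block, on all genes and on those in the upper 60% by SD. It was also called without replicate 3 of wild type after PMSG. Its 2 further probe sets differed by 0.024 and 0.061, so the separation rests on 1 of 3 probe sets. The other 4 BH3-only genes, Bid, Bad, Bbc3 (PUMA) and Pmaip1 (NOXA), differed by -0.28 to 0.022 after PMSG and by -0.41 to -0.0014 after hCG, all uncalled.

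Among the caspases Casp6, an executioner, was lower in Inha-/- after hCG. It read 0.52, 0.75 and 1.07 in wild type and -1.44, -0.65 and -0.63 in Inha-/- after hCG. After PMSG it read 0.22, 0.43 and 0.36 in wild type and -0.22, -0.85 and -0.42 in Inha-/-. All Inha-/- arrays lay below all wild-type arrays under both treatments. The difference was -1.69 ± 0.24 after hCG (95% interval -2.24 to -1.14, adjusted p = 0.00213), called in 12 of 12 fits that left out an array (-1.83 to -1.42). Between the single early arrays of the genotypes it was -1.96, and within the late ones -1.55 (adjusted p = 0.0717). After PMSG it was -0.83 ± 0.24 (adjusted p = 0.115, not called; 0.0467 without replicate 1 of Inha-/- after hCG and 0.0359 with the array-name block), and the change between treatments of -0.86 ± 0.34 was not called (adjusted p = 0.371).

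Apaf1, which assembles the apoptosome, differed by -1.33 ± 0.56 between genotypes after hCG and by 1.07 ± 0.56 with hCG in wild type, neither called on its most variable probe set (adjusted p = 0.172 and 0.296). Its values were 0.11, -0.10 and -0.022 in wild type and 0.60, -0.23 and -2.11 in Inha-/- after PMSG, and 1.26, 0.73 and 1.20 in wild type and -0.67, -0.15 and 0.022 in Inha-/- after hCG. The wild-type arrays after hCG lay above those of the 3 other groups. The initiators Casp2 and Casp9 differed by 0.13 and -0.40 after PMSG and by -0.22 and 0.39 after hCG between genotypes, uncalled. Without replicate 3 of Inha-/- after PMSG the former values were 0.36 and 0.22. Casp2 was then lower with hCG in Inha-/- (-0.68, adjusted p = 0.00805, against -0.45 and 0.401 with all arrays). In that comparison 59 of all 18193 genes were lower without this array, against 28 with all arrays. The inflammatory caspases Casp1 and Casp4 hardly varied, with an SD over the 12 arrays of 0.061 and 0.041 beside a median of 0.45 over the members and 0.33 over all genes. Casp12, an ER-associated caspase, read 0.096, 2.06 and 0.69 in Inha-/- after hCG and -0.11 to 0.14 on the 9 other arrays. Its difference of 1.0 ± 0.39 was not called (adjusted p = 0.138).

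The IAP genes Xiap, Birc2 and Birc3, which bind caspases or tag signalling partners with ubiquitin, and their antagonist Diablo gave no call. Xiap, Birc2 and Birc3 differed by -0.61, -0.38 and -0.67 after PMSG and by -0.33, -0.25 and -0.33 after hCG between genotypes. Without replicate 3 of Inha-/- after PMSG the first 3 values were 0.13, -0.23 and -0.39, with the sign turned for Xiap. The further probe sets after PMSG gave 0.061 for Birc3 and -0.52 to 0.12 for Xiap. Diablo differed by 0.26 and -0.40, and by 0.28 and 0.36 on its further probe set. Mdm2, the ubiquitin ligase that limits p53, read 0.87, 0.18 and 0.50 in wild type and -0.23, -0.13 and -0.25 in Inha-/- after hCG. These did not overlap, and the difference of -0.72 ± 0.27 was not called (adjusted p = 0.127). After PMSG it was -0.28 ± 0.27, and 0.040 without replicate 3 of Inha-/-.

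**Figure D3:**
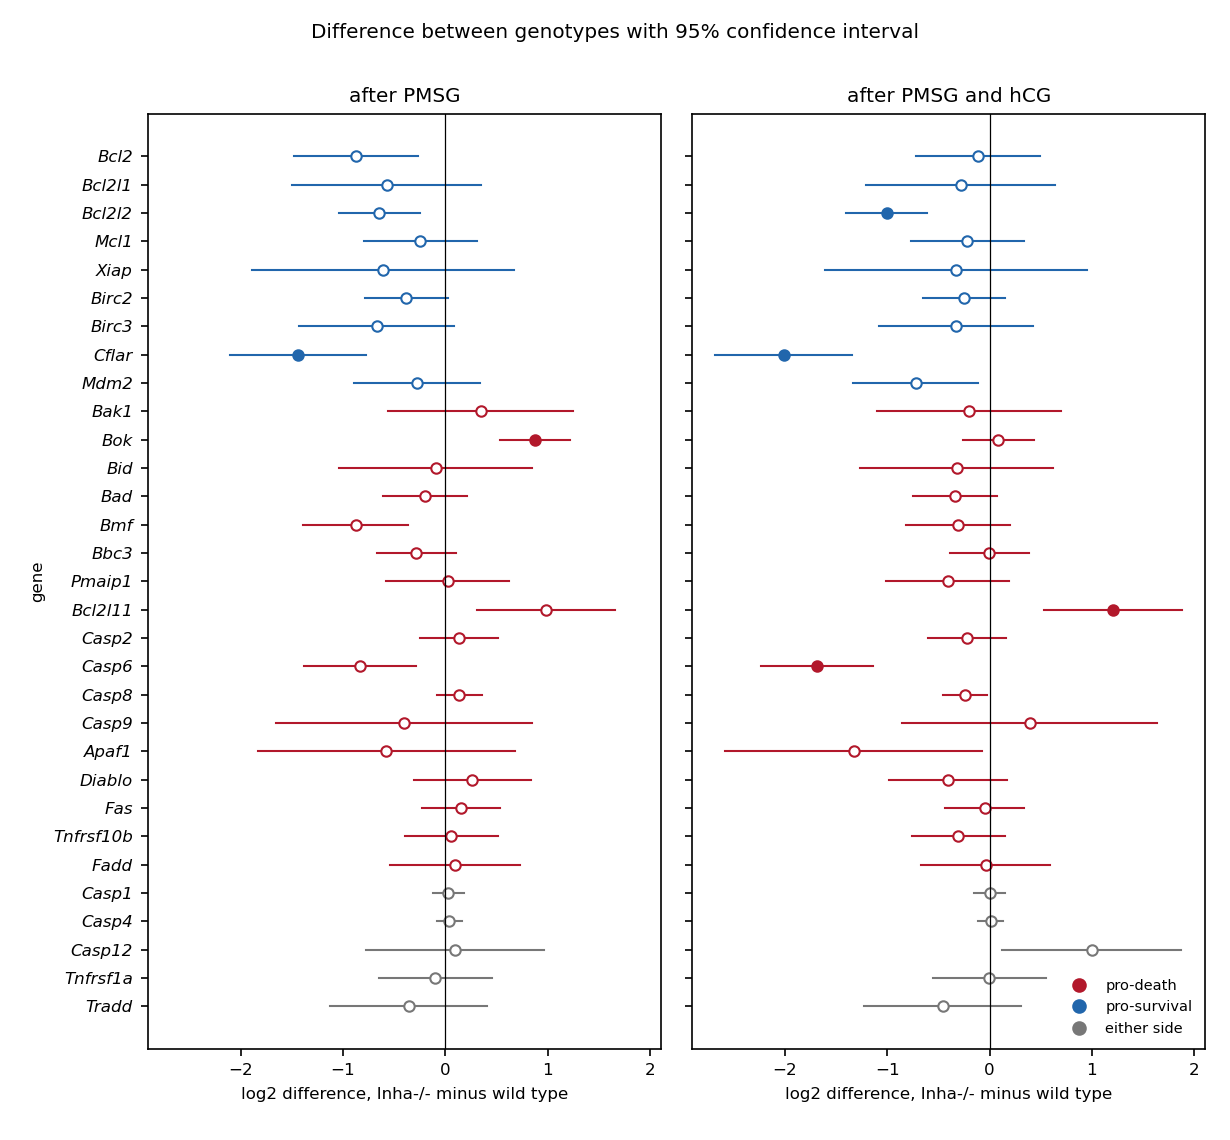
Log2 difference between Inha-/- and wild type (x axis) for each of the 31 measured members (y axis), after PMSG and after hCG, with 95% confidence intervals from the fit over 12 arrays; filled points passed an adjusted p of 0.05 and colours mark the side. All 9 pro-survival members lie left of 0 in both panels, 3 of them with an interval that excludes 0 in each.

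Counted by side, the pro-survival members leaned to lower values in Inha-/- under both treatments. The pro-death members leaned to lower values too after hCG, but not after PMSG. All 9 pro-survival members had a negative difference after PMSG, with a median of -0.61, and all 9 after hCG, with a median of -0.33. Of the 17 pro-death members 10 had a positive difference after PMSG (median 0.059) and 14 a negative one after hCG (median -0.24). Over all genes 64.9% were positive after PMSG (median 0.043) and 50.8% after hCG (median 0.00057). Without replicate 3 of Inha-/- after PMSG 6 of 9 pro-survival members were negative (median -0.39) and 11 of 17 pro-death members positive. With array weights 7 of 9 were negative after PMSG (median -0.23), and with the mean of all probe sets of a gene all 9, at a median of -0.20. After hCG 7 of 9 were negative without replicate 1 of Inha-/-, and 8 of 9 without replicate 1 or 2 of wild type or among the early or the late arrays alone. Under quantile scaling or with array medians subtracted all 9 were negative in both comparisons, and 9 of 17 pro-death members were positive after PMSG. These counts describe the list, whose members are not replicates, and carry no test.

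On single arrays the genotypes separated by the pro-survival but not by the pro-death median. The median of the 9 pro-survival members was 0.14 to 0.38 on wild-type arrays after PMSG and -0.85 to 0.0094 on Inha-/- arrays, and 0.21 to 0.52 against -0.38 to -0.063 after hCG. These did not overlap under either treatment. The median of the 17 pro-death members was -0.0095 to 0.022 against -0.024 to 0.15 after PMSG, which overlapped, and -0.051 to 0.10 against -0.15 to -0.033 after hCG, which overlapped too. After PMSG 4 of the 9 pro-survival members had arrays that did not overlap between genotypes, all lower in Inha-/-, beside 7.84% of all genes. After hCG there were 3, beside 12.3% of all genes. Of the 17 pro-death members 2 were separated upward and 2 downward after PMSG, beside 11% and 7.84% of all genes, and 1 upward and 6 downward after hCG, beside 15.6% and 12.3%.

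**Figure D4:**
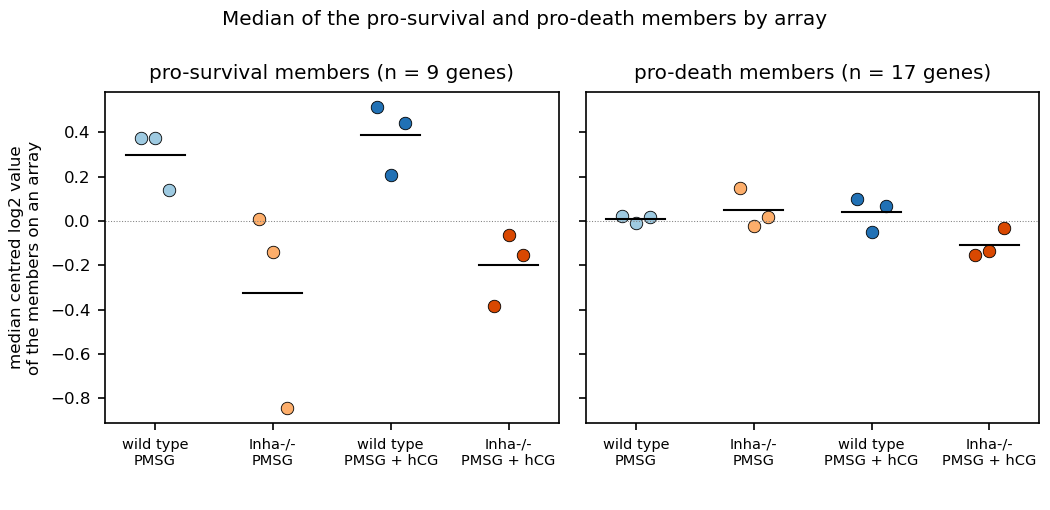
Median centred log2 value of the pro-survival members (left, 9 genes) and the pro-death members (right, 17 genes) on each array; points are arrays and lines are group means. Pro-survival medians on Inha-/- arrays (-0.85 to 0.0094 after PMSG, -0.38 to -0.063 after hCG) lie below those on wild-type arrays, and pro-death medians overlap.

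With hCG few members were called in either genotype. In wild type 10 of 17 pro-death and 5 of 9 pro-survival members had positive differences, with medians of 0.19 and 0.092 beside 0.0042 over all genes. In Inha-/- 4 of 17 and 6 of 9 were positive, with medians of -0.11 and 0.095 beside -0.038. At an unadjusted p under 0.05 there were 6 members in wild type and 5 in Inha-/-. The largest of these p were 0.0315 (Bmf, wild type) and 0.0427 (Casp12, Inha-/-), at ranks 4032 and 1602 of 18193 genes. Such p values were thus frequent over all genes, and the counts are not read as a result about the members. Arrays with and without hCG did not overlap for 8 members in wild type, 7 higher and 1 lower, beside 30.3% of all genes (13.3% and 17%). In Inha-/- they were 2 higher (Bcl2 and Tnfrsf1a) and 1 lower (Bok), beside 5.51% and 5.43%. Without replicate 3 of Inha-/- after PMSG 4 of 9 pro-survival members were positive in Inha-/- and their median was -0.31, and under quantile scaling also 4 of 9, with a median of -0.055.

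No member's response to hCG was called as different between genotypes, beside 1.16% of all genes. At an unadjusted p under 0.05 there were 3: Bok, Casp8 and Casp6. The largest of these p, 0.0339 for Casp6, had rank 1663 of 18193 genes. The largest values among the others were 0.90 ± 0.55 for Casp12 and 0.80 ± 0.78 for Casp9. The intervals of most members were wide; that of Cflar ran from -1.52 to 0.37, and that of Bcl2l11 from -0.73 to 1.17. The 2 genotype comparisons and the hCG comparisons share arrays, so that their values are given side by side only.

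Other probe sets of the members added calls and disagreements. For 21 members 48 further probe sets were on the array, tested among 34945 single-gene probe sets. None was called between genotypes after PMSG, beside 3.04% of all probe sets, and 3 were higher and 4 lower after hCG, beside 12.1%. With hCG in wild type 6 were higher and 1 lower, again beside 12.1%. With hCG in Inha-/- and for the difference of responses none was called, beside 1.20% and 0.930%.

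All 5 Bcl2l11 probe sets had positive differences after hCG. The 4 further ones differed by 0.57 to 1.20, and 3 of them were called (adjusted p = 0.0110, 0.0180 and 0.0316). With hCG in wild type these 4 gave -0.62 to -0.26, uncalled, beside 0.24 ± 0.30 on the probe set used above. The further Casp6 probe set gave -1.0 ± 0.28 (adjusted p = 0.0501). One further Cflar probe set was lower, by -1.33 ± 0.21 (adjusted p = 0.00363), and the other 3 ranged from -0.36 to 0.14. For Bcl2l2 the 3 further probe sets differed by -0.11 to -0.026, so its call rests on 1 of 4 probe sets. With the mean of all probe sets of a gene in place of 1, the differences after hCG were -0.77 for Cflar and -0.30 for Bcl2l2, both still called, and Cflar gave -0.56 after PMSG. The files do not say which transcripts these probe sets read. Bok and Casp8 had 1 probe set.

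A further Apaf1 probe set carried less scatter and was called in both comparisons. Wild-type arrays read 0.084, 0.053 and -0.11 after PMSG and 1.37, 0.80 and 1.35 after hCG, and Inha-/- arrays 0.19, -0.24 and -0.51 after PMSG and -0.053, -0.31 and -0.053 after hCG. Apaf1 thus rose with hCG in wild type by 1.17 ± 0.20 (adjusted p = 0.00552) and was lower in Inha-/- after hCG by -1.31 ± 0.20 (adjusted p = 0.00284). The wild-type arrays after hCG were again above all others. A further Mdm2 probe set went the same way, at 0.57 ± 0.16 with hCG in wild type (adjusted p = 0.0427) and -0.64 ± 0.16 between genotypes after hCG (adjusted p = 0.0270). Of 5 further Mcl1 probe sets 4 rose with hCG in wild type, by 0.41 to 0.67 (adjusted p = 0.00775 to 0.0473). A further Bid probe set fell by 1.09 ± 0.20 there (adjusted p = 0.00859). A further Casp9 probe set was lower in Inha-/- after hCG by -0.35 ± 0.091 (adjusted p = 0.0347), opposite in sign to the 0.39 ± 0.55 of its most variable probe set.

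**Figure D5:**
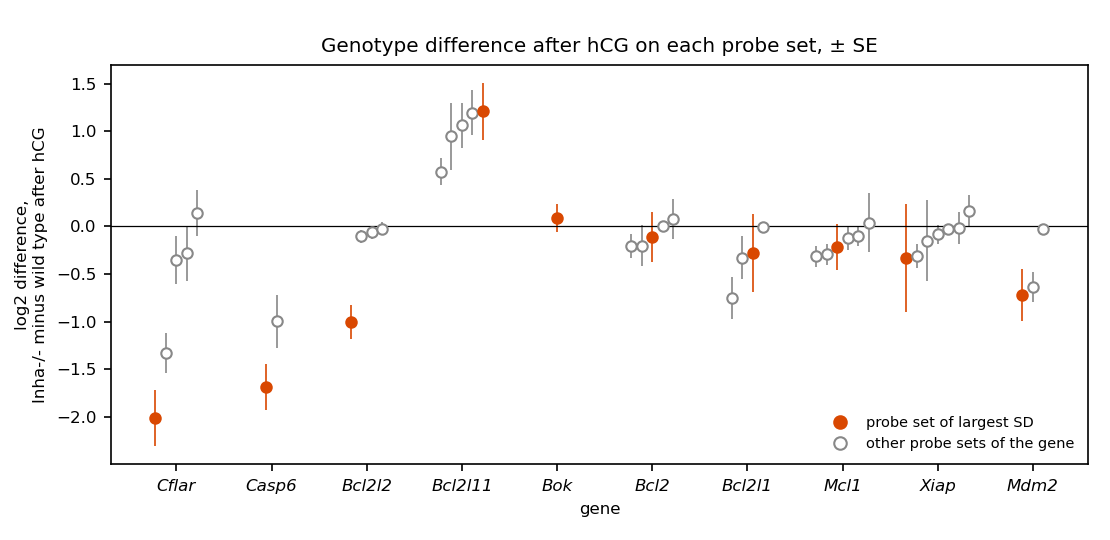
Log2 difference between Inha-/- and wild type after hCG (y axis, ± SE) for every single-gene probe set of 10 members (x axis); filled points are the probe sets used for the gene (largest SD over 12 arrays). The Bcl2l11 probe sets lie between 0.57 and 1.21, while 3 of 4 for Bcl2l2 lie near 0.

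Genes of the same pathways were read from lists, of which only that of the wider death machinery holds no member. Beside all list counts below, the shares of all genes called higher and lower between genotypes were 1.79% and 1.72% after PMSG. After hCG they were 8.0% and 5.66%. With hCG they were 6.49% and 7.43% in wild type and 1.40% and 0.154% in Inha-/-. Counts near these shares are not read as a result about a list. Of 29 measured genes of the wider death machinery 1 was higher in Inha-/- after PMSG and none lower. After hCG 4 were higher and 2 lower. Bcl2l10, a BCL2 relative enriched in oocytes, was higher by 2.89 ± 0.55 and 3.6 ± 0.55 (adjusted p = 0.0237 and 0.00281). It read -3.15 to -0.71 on wild-type and 0.71 to 1.93 on Inha-/- arrays, beside the oocyte markers given above. After hCG Birc5 (survivin, which also acts in mitosis) was higher by 0.75 ± 0.15 and Aifm1, a mitochondrial flavoprotein that can enter the nucleus, by 0.91 ± 0.22. Birc6, a large IAP, was lower by -1.43 ± 0.34. The list's medians were 0.069 and -0.015. In wild type hCG raised 2 of the 29, among them the death receptor Tnfrsf21 (2.14 ± 0.51) and the NF-kappaB inhibitor Nfkbia (1.71 ± 0.45), and lowered 3, among them Parp1 (-1.27 ± 0.23) and Birc5 (-0.72 ± 0.15). None was called with hCG in Inha-/-.

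Of 21 measured p53 target genes, among them the members Fas, Tnfrsf10b, Bbc3, Pmaip1 and Mdm2, none was called after PMSG, and 2 were higher and 2 lower in Inha-/- after hCG. Lower were Zmat3 (-1.43 ± 0.27) and Ddit4, an mTOR inhibitor (-1.53 ± 0.35). Higher were Ei24 (0.56 ± 0.12) and Pidd1 (0.42 ± 0.10). In wild type hCG raised 4 and lowered 2. The cell cycle inhibitor Cdkn1a rose 9.94-fold (3.31 ± 0.60, adjusted p = 0.00682) and Ddit4 rose by 1.72 ± 0.35, while Sesn1 fell by 0.96 ± 0.20 and Ei24 fell by 0.64 ± 0.12. In Inha-/- none was called. The list's medians were -0.15 and -0.37 between genotypes and 0.13 and -0.060 with hCG.

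Of 17 measured genes of the PI3K survival route and FOXO targets, a list that holds Bcl2l11, none was higher and 2 were lower in Inha-/- after PMSG. They were Pik3r1, a regulatory subunit of PI3 kinase, at -4.39 ± 0.48 (adjusted p = 0.00236), and the survival kinase Sgk1 at -2.03 ± 0.31. After hCG 2 were higher, Foxo1 and the member Bcl2l11 itself, and 3 lower. Foxo1, a forkhead factor that PI3K signalling excludes from the nucleus, was higher by 1.40 ± 0.34 (adjusted p = 0.0254). It read 0.36, 0.25 and 0.45 in wild type after PMSG and -1.56, -0.94 and -2.50 after hCG, and 0.26, 0.30 and -0.13 in Inha-/- after PMSG and 0.13, -0.50 and -0.43 after hCG. Foxo1 fell with hCG in wild type by 2.02 ± 0.34 (adjusted p = 0.00518). Klf2 was lower in Inha-/- after hCG, by -2.89 ± 0.53, and Sgk1 by -2.04 ± 0.31. In wild type hCG raised 4 and lowered 3 of the 17, and in Inha-/- it raised 1, Sgk1 (1.68 ± 0.31, adjusted p = 0.0290).

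Of 11 ER stress genes, among them the member Casp12, none was called after PMSG. After hCG Eif2ak3 (PERK), a sensor kinase of unfolded proteins, was higher in Inha-/- by 0.65 ± 0.18, and the factors Ddit3 (CHOP) and Atf4 were lower by -0.75 ± 0.21 and -0.63 ± 0.18 (adjusted p = 0.0405 to 0.0467 for the 3). In wild type hCG raised Atf4 (0.94 ± 0.18) and lowered Eif2ak3 (-1.01 ± 0.18) and Xbp1 (-0.80 ± 0.20). None was called with hCG in Inha-/-. The medians of this list lay between -0.22 and 0.094 in the 4 comparisons.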

How the data were processed

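Affymetrix arrays, 1 per sample, gave the RNA values of 12 granulosa cell samples, 3 in each of 4 groups taken from the titles and characteristics. The deposited values are log2 expression. The submitters' processing notes name GCRMA, with a version not given in the sources used here. Deposited log2 values of every probe set have a median of 0 over the 12 arrays (largest absolute median 5e-07), a centring the labels do not state. Base 2 was checked by the widest probe set, which spans 13.3 units, above the 11.1 that natural logarithms of a 16-bit scanner allow.

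Of 45101 probe sets 34945 name 1 gene and are no controls. Another 932 name several genes, 9160 name none, and 64 are controls. Each of 18193 genes was represented by its most variable probe set (SD of all 12 arrays, groups ignored), with no filter, so that every measured member was tested.

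Group means were fitted on all 12 arrays in limma (version 3.58.1, R 4.3.3; lmFit, eBayes). The comparisons were Inha-/- against wild type after PMSG and after hCG, hCG in each genotype, and the difference of the hCG responses. P values were adjusted by Benjamini-Hochberg over all genes and called at 0.05. Differences are log2 with SE, and "rose", "fell", "higher" and "lower" of a comparison mean called. The number of arrays limits the precision. Values in every array are given for members called in at least 1 comparison and for Bcl2, Bcl2l1, Mcl1 and Bcl2l11. Tnfrsf1a, Bmf, Apaf1, Casp12, Mdm2 and single further probe sets were chosen after their values were seen. Of each pathway list up to 4 called genes with the smallest adjusted p were named. The members, lists and motifs were chosen with earlier results of these data known. The fit was tested on simulated data. Promoters came from RefSeq (GRCm38.p6). Alternatives were a filter on SD, other probe set rules, scalings and variance priors, array weights, blocks, a fold threshold and leaving out each array.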

Additional observations from a re-analysis of the deposited data

How the results depend on the processing

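Every called member kept its direction under each alternative run. Leaving aside the early arrays, with a single array of each hCG group, the calls of Cflar, Casp6 and Bcl2l2 after hCG were lost in 1 setting. It was the late arrays alone, which hold fewer samples. Counts below are members called higher and lower, with the calls over all 18193 genes in parentheses. Between genotypes after PMSG they were 1 and 1 (325 and 313), and became 5 and 5 with array weights (2643 and 1556). With the number in the array name as a random block they were 2 and 5 (743 and 736). With early or late serial number as a covariate they were 2 and 2 (333 and 332). The early arrays gave 0 and 0 (47 and 25), and a 2-fold threshold gave 0 higher (230). After hCG they were 1 and 3 (1456 and 1029), and became 2 and 8 with weights (2836 and 2151). The random block gave 0 higher (779) and the late arrays 0 and 0 (39 and 26). The mean of all probe sets gave 5 lower (1184). With hCG in wild type they were 1 and 0 (1180 and 1351), and became 10 and 4 with weights (2625 and 3215). The mean of all probe sets gave 2 higher (1279). There were 0 higher with the random block (743) and at 2-fold (865). With hCG in Inha-/- they were 0 and 0 (255 and 28), and became 3 and 6 with weights (1829 and 2283). The serial covariate gave 1 higher (262). For the difference of responses weights gave 7 lower (1687). Weights and the random block on the genes in the upper 60% by SD were added after seeing the data. After PMSG they gave 2 and 3 (487 and 450 of 12500 genes) and 2 and 2 (545 and 561). Weights gave 2 and 5 after hCG (2284 and 1543) and 5 and 2 with hCG in wild type (1971 and 2572). There the random block gave 0 higher (1092). The cause of these changes was not tested. Mcl1 reversed in the difference of responses, from 0.026 to -0.62 with weights (adjusted p = 0.0356).

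The pro-death minus the pro-survival median was 0.67 after PMSG (0.24 with the mean of all probe sets, 0.42 with weights), 0.088 after hCG (0.57 among the early arrays), -0.20 with hCG in Inha-/- (0.19 among the early and -0.91 among the late arrays) and -0.49 for the difference of responses (-0.15 with weights, -0.23 with the random block, 0.0062 among the early arrays). Leaving out each array in turn gave 0 to 1 higher and 0 to 2 lower after PMSG, 0 to 1 and 3 to 5 after hCG, 0 to 4 and 0 to 1 with hCG in wild type, 0 to 1 and 0 to 1 in Inha-/-, and 0 to 1 lower for the difference. The 5 lower and the 4 higher came without replicate 3 of Inha-/- after PMSG, beside 1107 lower and 1260 higher over all genes. The median difference ranged from 0.48 to 0.76, 0.088 to 0.21, -0.099 to 0.19, -0.41 to 0.15 and -0.53 to -0.078 in the same order.

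Replicate numbers were not taken as pairs: deviations of same-numbered samples correlated over 0.1 in 6 of 18 pairs, and 9 correlated best with their own number. Between the PMSG groups all 3 did (0.19, 0.29 and 0.092), a hint from the data; replicates 1 and replicates 2 there also share the number in the array name, whose block is given above. With the replicate block 0 members were lower after PMSG and 0 higher with hCG in wild type, where Cflar and Casp8 were no longer called. Over all genes, weights raised the calls after PMSG from 325 and 313 to 2643 and 1556, while the early arrays alone gave 47 and 25. After hCG the late arrays alone gave 39 and 26 instead of 1456 and 1029.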

Other observations

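Bcl2a1a, a pro-survival BCL2 relative known mainly from blood cells, was read by 3 probe sets that also name its near-identical copies Bcl2a1b and Bcl2a1d, so its values cannot be told apart from theirs. Over the 3 probe sets and 12 arrays the centred log2 values ranged from -0.092 to 0.91. The highest value was on replicate 1 of wild type after hCG, and the same probe set read 0.52 on replicate 3 of Inha-/- after PMSG and -0.092 to 0.045 on the other 10 arrays.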
